A study of Mus musculus with 8 samples.

Results

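Gene expression was compared between retinas taken 4 weeks and 1 week after MPTP treatment, across all genes measured. The comparison used the 2 arrays labelled as MPTP-treated at 4 weeks (day 28) and the 2 labelled as MPTP-treated at 1 week (day 7), which are 4 of the 8 arrays of the series. The other 4 arrays, from saline-treated mice at the same times, gave the difference over the same interval without MPTP. All mice were male C57BL/6 that were 6 weeks old at the start. The sources used here do not give the dose, route or number of injections. A group consisted of 6 mice with 12 retinas, and for each array 4 retinas were pooled, so that 8 retinas per group were measured. It is not given if the pools share mice, and the p-values below measure only the spread between pools. The mice at 4 weeks were also older than those at 1 week, and time after MPTP and age cannot be told apart within the MPTP arrays.

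Glia convert MPTP to MPP+. Dopaminergic neurons take up MPP+ with their dopamine transporter, and inside mitochondria it blocks complex I, the entry point of the respiratory chain. In the retina, dopamine is made by a sparse class of amacrine cells. Type I interferons signal to the nucleus and turn on transcription of antiviral genes such as the IFIT and OAS families. In bulk tissue, fewer cells of a type and less RNA per cell cannot be told apart.

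The labelled tissue was checked on its markers. The rod transducin gene Gnat1 read 12.51 and 12.63 at 1 week and 12.51 and 12.43 at 4 weeks after MPTP, in log2 signal, which places it among the brightest genes by mean signal. The first principal component of the 8 arrays held 38.3% of the variance and set MPTP 1 week array 1 apart, together with saline 1 week array 2. The interquartile range of log2 signal over genes was 1.92 and 1.73 in the MPTP 1 week arrays and 1.66 and 1.65 in the MPTP 4 week arrays. The other MPTP 1 week array, array 2, had the highest lens signal of the series. Its lens list averaged 7.66, against 6.79 in array 1 of that group and 7.14 and 7.21 at 4 weeks. The 2 arrays that set the 1 week level were therefore each unlike the rest in a different way, and values without each of them are given below for genes and lists that moved with them.

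The narrower spread of signal at 4 weeks appeared in the differences between the times. Genes were sorted into 10 equal classes by their mean signal over the 8 arrays. In the dimmest class the median difference, 4 weeks minus 1 week, was 0.097 on the log2 scale. It was 0.11 in the third class, 0.027 in the sixth, -0.10 in the ninth and -0.097 in the brightest class. In saline the medians of the group means ran from 0.042 in the third class to -0.049 in the ninth, but in the pairs with saline 1 week array 1 dim genes lay at or below 0. Against MPTP 1 week array 2 the trend was shallower than against array 1, as the plot of median differences by signal class shows. For this reason each difference is also given after signal-matched centring. In that step each array's median deviation from the mean over arrays was subtracted within 100 bins of mean signal, so that a gene is compared with genes of like brightness. This setting was chosen after seeing the data.

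**Figure D1:**
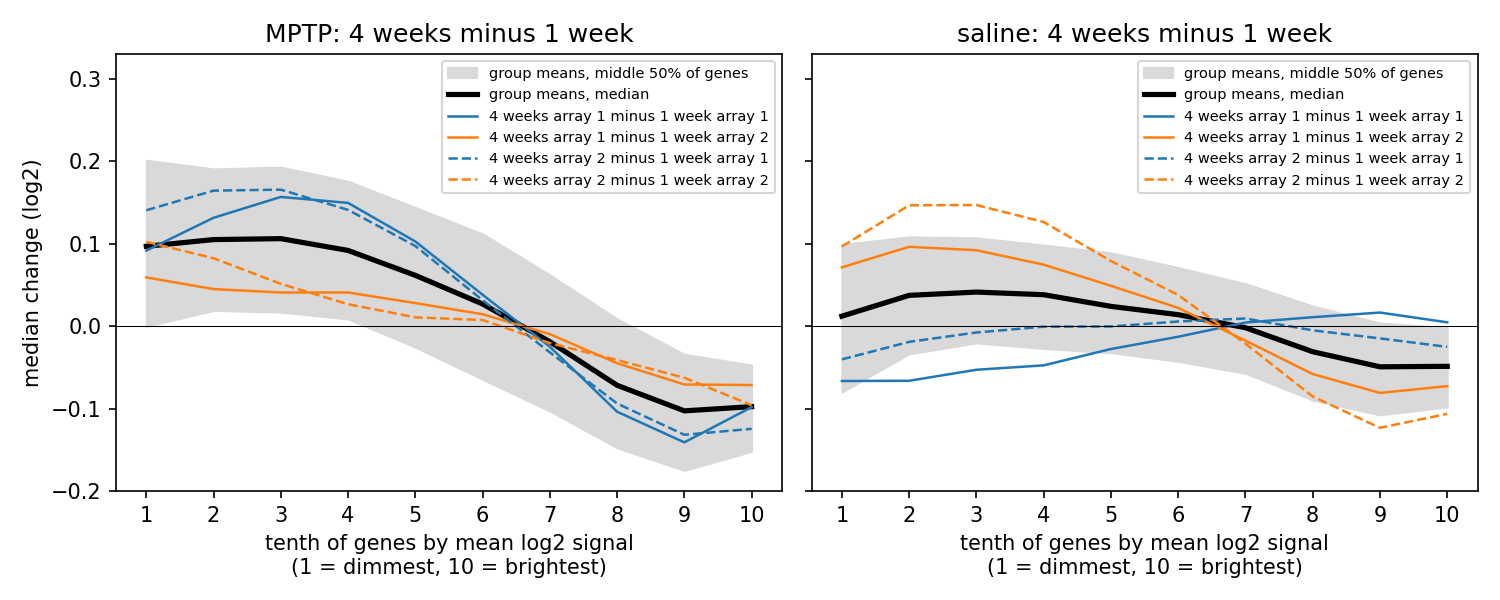
Median log2 difference between 4 weeks and 1 week (vertical axis) in 10 classes of genes by mean signal (horizontal axis), for MPTP (left) and saline (right). The black line is the difference of group means with the middle 50% of genes in grey, and coloured lines are single pairs of arrays. Dim genes lie above 0 and bright genes below 0 in MPTP, most steeply against 1 week array 1.

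No gene passed the test for a difference between the times after MPTP. Of 19938 genes, 0 (0%) had a Benjamini-Hochberg adjusted p under 0.05 in limma, and the smallest adjusted p was 0.507, for Rtp4. At an unadjusted p under 0.05, 1083 genes were higher at 4 weeks (5.43%) and 869 lower (4.36%). After signal-matched centring these were 666 higher (3.34%) and 742 lower (3.72%). The split depended on scaling, with 713 higher and 1284 lower after centring each array on its median and 503 and 989 after interquartile scaling. Leaving out MPTP 1 week array 1 gave 651 higher and 459 lower, and leaving out array 2 gave 1949 and 1192. Both 4 week arrays lay above both 1 week arrays for 4541 genes (22.8%) and below them for 4288 (21.5%). With 2 arrays against 2, an exact permutation test of a single gene cannot go below p = 0.333. The median standard error of a difference was 0.105. No gene is therefore described below as having risen or fallen, and the values are given as measured.

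Size and signal level were linked. A difference of at least 1.5-fold with no overlap of arrays and an unadjusted p under 0.05 was met by 32 genes, 10 higher and 22 lower at 4 weeks. All 10 higher genes lay in the dimmest 14.9% of genes, 4 of them olfactory or vomeronasal receptor genes. Of the 22 lower genes, 8 were above the median of signal. With size and p taken after signal-matched centring, and overlap still judged on the deposited values, 1 gene was higher by that size and 27 were lower. Of the 22 lower genes, 6 belonged to the interferon response list and 3 to the small nucleolar and Y RNAs, and both groups reach well below the trend in the plot of differences against signal.

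**Figure D2:**
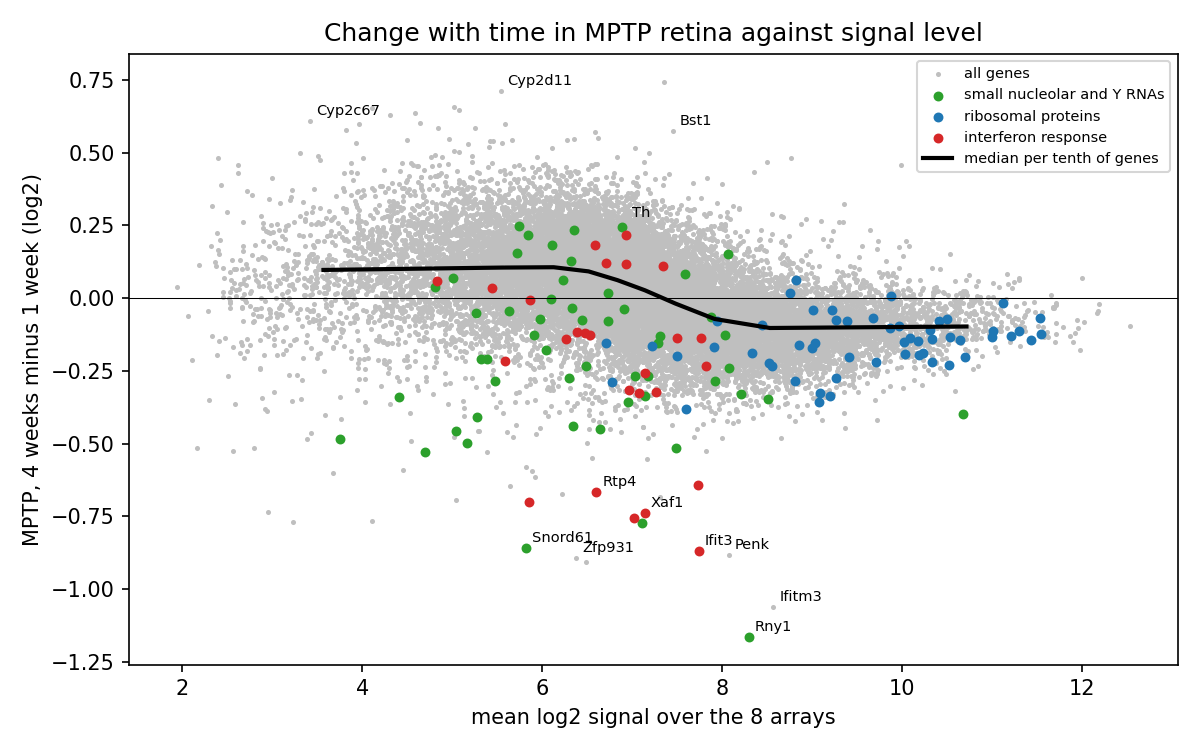
Each point is a gene, with its mean log2 signal over the 8 arrays (horizontal) and its log2 difference between 4 weeks and 1 week after MPTP (vertical). The black line is the median per class of signal, and interferon response genes (red) and small nucleolar and Y RNAs (green) reach well below it. Ribosomal protein genes (blue) lie closer to the line but mostly below it, with 42 of 55 below 0 after signal-matched centring.

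Of 26 interferon-induced genes measured, 19 had a lower mean signal at 4 weeks than at 1 week after MPTP (73.1%, against 46.7% of all genes). Over the same interval in saline 20 of the 26 were lower, against 9859 of all 19938 genes, so the direction alone was not particular to MPTP. The median difference of the list was -0.14 against 0.015 over all genes. At an unadjusted p under 0.05, 10 were lower (38.5% of the list, against 4.36% of all genes) and 0 higher. After signal-matched centring the median was -0.21 and 13 of 26 were lower, against 3.72% of all genes. The list was chosen with results of these arrays known, so its count is a description. None passed the adjusted threshold.

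Rtp4, a chaperone of receptors that type I interferon induces, had the smallest p of all genes. It read 7.08 and 6.96 in the MPTP 1 week arrays and 6.44 and 6.27 at 4 weeks, with 6.48 and 6.42 and 6.63 and 6.48 in saline at 1 and 4 weeks. The MPTP 1 week arrays thus lay above the other 6, and the 4 week arrays lay within or below the saline range. Its difference was -0.67 ± 0.10 (log2, SE; unadjusted p = 6.56e-05, adjusted p = 0.507 by limma), and it was 0.10 ± 0.10 in saline. The difference between these differences was -0.77 ± 0.14, with an unadjusted p of 3.29e-04 and an adjusted p of 1.000 by limma. Xaf1, which antagonises the caspase inhibitor XIAP, read 7.62 and 7.45 at 1 week and 6.82 and 6.78 at 4 weeks. Its difference of -0.74 ± 0.15 stood against -0.096 ± 0.15 in saline, where single arrays ran from 6.92 to 7.39. Ifi203, a member of the family of nucleic acid binding interferon-inducible proteins, went from 6.50 and 6.08 to 5.74 and 5.44, a difference of -0.70 ± 0.15, and array 1 of the 1 week group was the higher, so that it was -0.49 without array 1 and -0.91 without array 2.

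The IFIT proteins bind viral RNA and block its translation. Ifit3 read 8.26 and 8.29 at 1 week and 7.61 and 7.20 at 4 weeks, a difference of -0.87 ± 0.23. Ifit1 read 7.57 and 7.46 and then 6.85 and 6.67, with a difference of -0.76 ± 0.23. In both, the 1 week arrays lay close together and above all saline arrays, which themselves were spread from 7.10 to 8.01 for Ifit3 and from 6.36 to 7.23 for Ifit1. Ifit2 had the smallest difference of the 3, -0.26 ± 0.097. Ifit3b, outside the list, differed by -0.90 ± 0.27, but it is a near-identical copy of Ifit3 and their signals may not be separate. Oasl2, an OAS-like protein, read 8.15 and 8.17 and 7.73 and 7.30, a difference of -0.64 ± 0.20.

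The sensors and transducers of the pathway had smaller differences in the same direction. Ddx58 and Ifih1 encode RIG-I and MDA5, the cytosolic sensors of viral RNA. Ddx58 differed by -0.33 ± 0.11 and Ifih1 by -0.32 ± 0.12, with the arrays of the times apart in both. Irf9, the DNA-binding part of the interferon-activated factor, differed by -0.32 ± 0.13, which was -0.19 without MPTP 1 week array 1 and -0.45 without array 2. Its partner Stat2 differed by -0.23 ± 0.12 at an unadjusted p of 0.0694 by limma, short of 0.05. Other classical targets ranged from -0.22 to 0.22, with Mx2 the lowest at -0.22 ± 0.12. Mx1 differed by 0.059 ± 0.098, Rsad2 by -0.0063 ± 0.089 and Irf7, the amplifier of the response, by -0.14 ± 0.12. Oas2 and Oasl1 were higher at 4 weeks, by 0.18 ± 0.095 and 0.22 ± 0.097, or by 0.095 and 0.11 without MPTP 1 week array 1. In saline they differed by 0.25 ± 0.095 and 0.024 ± 0.097. The list therefore did not move as a whole, and Mx1 and Rsad2, at 4.83 and 4.76 and 5.85 and 5.89 at 1 week, are among its dim members.

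Interferon-induced genes outside the list were also among the lowest differences, and these were named by their values. Ifitm3, which restricts the entry of viruses, read 9.14 and 9.41 at 1 week and 8.68 and 7.75 at 4 weeks. Its difference of -1.06 ± 0.32 was the lowest among named genes above the median of signal, with array 2 of the 4 week group almost 1 unit below array 1. Saline 4 week arrays had a like split, at 8.59 and 7.62, and Ifitm3 differed by -0.57 ± 0.32 in saline. The difference between the MPTP and saline differences was -0.49 ± 0.45 (unadjusted p = 0.301 by limma). Gbp3, a guanylate-binding protein, read 6.52 and 6.47 and 5.94 and 5.70, and Samd9l 6.35 and 6.13 and 5.77 and 5.48. For Gbp3 saline 1 week array 2 was as high as the MPTP 1 week arrays, at 6.66, so its 1 week level was not above all saline arrays. Gbp3 differed by -0.67 ± 0.18 after MPTP and by -0.33 ± 0.18 in saline. The difference between these was -0.34 ± 0.25.

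**Figure D3:**
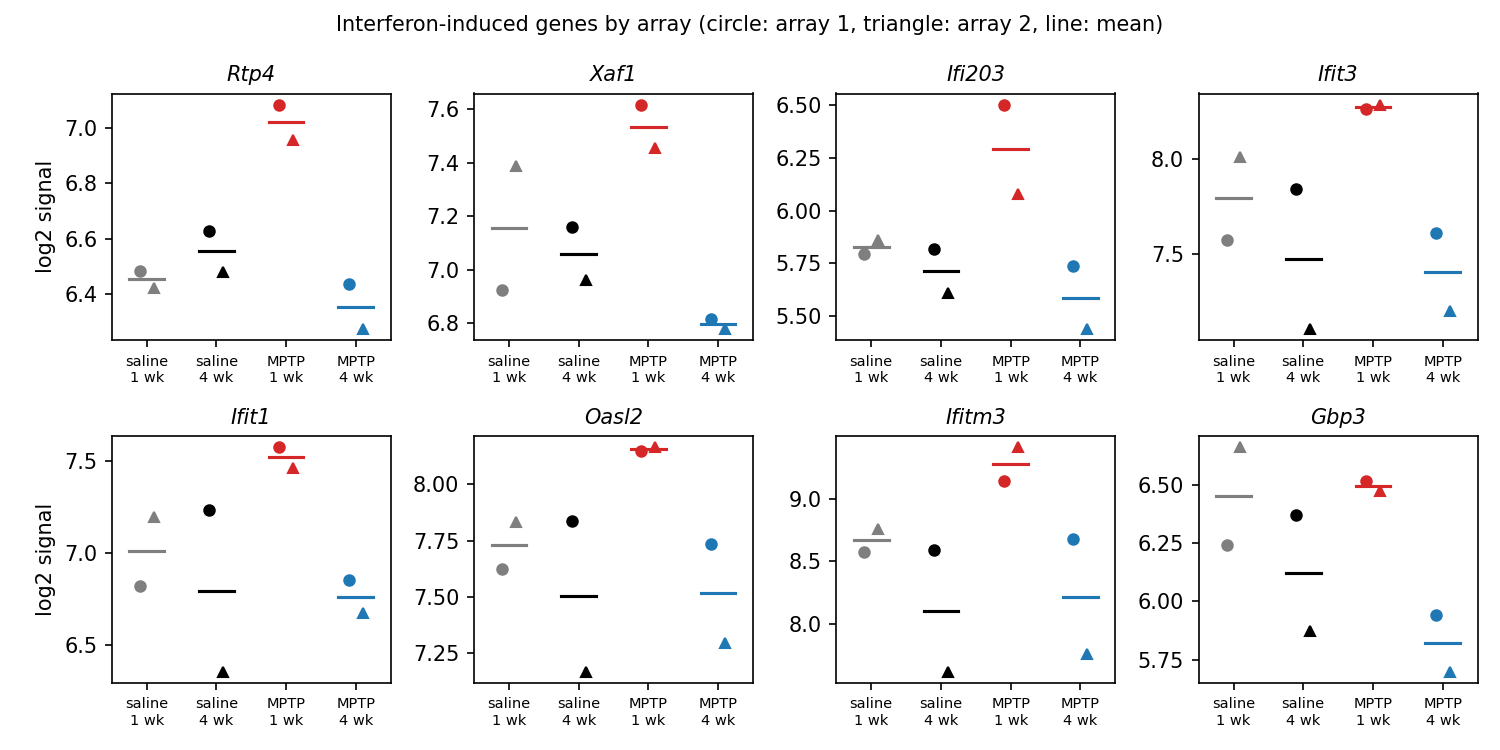
Log2 signal (vertical) of 8 interferon-induced genes in each of the 8 arrays, by group (horizontal); circles are array 1, triangles array 2 and lines the group means. Both MPTP 1 week arrays lie above both MPTP 4 week arrays for every gene shown, and saline 4 weeks array 2 is low for Ifit3, Ifit1, Oasl2, Ifitm3 and Gbp3.

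The saline arrays bear on how this is read. Both MPTP 1 week arrays exceeded the other 6 arrays for 10 of the 26 interferon genes (38.5%), against 1245 of all genes (6.24%). Lists of bright genes had like shares, with 26 of 55 ribosomal protein genes (47.3%), 13 of 31 proteasome genes (41.9%) and 14 of 39 genes of complexes II to V (35.9%), so the share is not particular to the interferon list. The interferon genes were Rtp4, Xaf1, Ifi203, Ifit1, Ifit2, Ifit3, Oasl2, Ddx58, Ifih1 and Mx2. The mean of the list per array was 6.89 and 6.88 at 1 week after MPTP and 6.70 and 6.61 at 4 weeks. In saline it was 6.74 and 6.77 at 1 week and 6.77 and 6.61 at 4 weeks, so saline 4 weeks array 2 was as low as the lowest MPTP array. The median difference of the list in saline was -0.093, with 0 genes lower and 1 higher at an unadjusted p under 0.05, where 2.13% of all genes passed. The difference between the MPTP and saline differences had a median of -0.086, and 3 of 26 genes passed an unadjusted p under 0.05, all lower (11.5%), against 0.537% of all genes in that direction. Leaving out either MPTP 1 week array kept the median below 0, at -0.19 without array 1 and -0.22 without array 2. Without MPTP 4 weeks array 2 the count of lower genes was 6 in place of 10.

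The interferon-activated factor binds a pair of GAAA blocks with 2 bases between them, so the 250 bases upstream of the start site of each gene with a RefSeq promoter entry were searched for GAAANNGAAA on both strands. Of the 10 lower interferon genes, 9 had an entry and 3 a match, Ifi203, Ifit1 and Ifit3. Of the other 16 genes, 9 had an entry and 4 a match, Stat2, Bst2, Oas1a and Rsad2. A match occurred in 3.40% of 15614 measured genes with an entry and in 2.98% of 32851 promoter entries. The stretches that hold the matches are printed from the RefSeq promoters (GRCm38.p6), 5′ to 3′ on the strand of the gene, with the matches in capitals. They show the single match of Ifi203 on the strand of the gene at chr1:173942493-173942557 (minus strand), and the pairs of matches on the opposite strand in Ifit1 at chr19:34640755-34640843 and in Ifit3 at chr19:34583343-34583446 (both plus strand). A match is a description of letters and not a measured site.
Ifi203: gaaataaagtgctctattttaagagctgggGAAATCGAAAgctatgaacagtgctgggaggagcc
Ifit1: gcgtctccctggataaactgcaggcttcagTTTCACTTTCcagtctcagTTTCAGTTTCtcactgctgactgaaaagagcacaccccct
Ifit3: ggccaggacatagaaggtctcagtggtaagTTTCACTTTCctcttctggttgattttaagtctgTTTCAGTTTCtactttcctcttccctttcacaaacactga

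Other immune lists had medians above 0 in the deposited values. Of 22 microglia and complement genes, 20 were above 0 (90.9%, against 53.3% of all genes). Their median of 0.11 was 0.025 after signal-matched centring and 0.027 without MPTP 1 week array 1. C1qb, a chain of complement C1q, read 6.36 and 6.57 at 1 week and 6.75 and 6.77 at 4 weeks, a difference of 0.30 ± 0.098, or 0.19 without 1 week array 1. Tyrobp, the adaptor of microglial activating receptors, differed by 0.30 ± 0.13, or 0.18 without 1 week array 2. These 2 members (9.09%) were higher at an unadjusted p under 0.05, against 5.43% of all genes. Of 13 genes of antigen presentation by MHC class I, the median was 0.040 and 1 gene (7.69%) was higher at that p, the transactivator Nlrc5, at 9.16 and 9.27 and then 9.68 and 9.40. B2m differed by -0.20 ± 0.21, with 4 weeks array 2 low in both MPTP (9.66) and saline (9.53). Of 19 cytokines and NF-kB targets, 2 were higher (Tnf, 0.27 ± 0.11, and Ccl3, 0.21 ± 0.091) and 2 lower (Il18, -0.31 ± 0.13, and Il1a, -0.26 ± 0.11) at that p. Each pair is 10.5% of the list, against 5.43% of all genes higher and 4.36% lower. Without 1 week array 1, Ccl3 differed by 0.13 and Il1a by -0.13. All 4 are dim or mid-level genes and their arrays of the 2 times did not overlap.

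Short RNAs outside the poly(A) pool were the second group with large differences. Of 53 small nucleolar and Y RNAs, 40 were below 0 with a median of -0.18, which was -0.21 after signal-matched centring. At an unadjusted p under 0.05, 16 were lower (30.2% of the group, against 4.36% of all genes) and 1 was higher, Snora21 at 0.25 ± 0.10, where 5.43% of all genes were higher. Rny1, a small RNA bound by the Ro60 protein, had the lowest difference of all 19938 genes. It read 8.50 and 9.55 at 1 week and 7.99 and 7.73 at 4 weeks, a difference of -1.16 ± 0.26. In saline it read 8.20 and 8.38 at 1 week and 7.98 and 8.01 at 4 weeks, a difference of -0.30 ± 0.26, also without overlap. MPTP 1 week array 2 was about 1 unit above array 1, so the difference was -1.69 without array 1 and -0.64 without array 2. Without array 1, Rny1 was the only gene of 19938 with an adjusted p under 0.05, at 0.0117 by limma. In that fit the 1 week group is 1 array, the one in which Rny1 was highest, and its spread is assumed to be that of the other groups, so the call follows from which array was left out. That array also had the highest lens signal, and whether this took part was not tested. Rny3, its relative, differed by -0.40 ± 0.16 with the same array highest, by -0.68 without array 1 and by -0.11 without array 2. In saline Rny3 differed by -0.23 ± 0.16, also without overlap.

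Of the 51 small nucleolar RNAs in the group, 34 read higher in MPTP 1 week array 1 and 17 in array 2. Snord61, which guides methylation of RNA, read 6.32 and 5.90 at 1 week and 5.28 and 5.22 at 4 weeks, a difference of -0.86 ± 0.19, and in saline it ranged from 5.66 to 6.29. Snora75 read 7.73 and 7.42 and 6.57 and 7.03, a difference of -0.77 ± 0.16, and Snora33 6.95 and 6.98 and 6.44 and 6.59, a difference of -0.45 ± 0.094. The last 2 guide the conversion of uridine to pseudouridine. For Snord61 and Snora75, MPTP 1 week array 1 was the higher, and for both Y RNAs array 2. In saline 41 of 53 members of the group were below 0, against 40 after MPTP, and the saline median was -0.12. At an unadjusted p under 0.05, 3 of 53 were lower in saline (5.66%, against 1.25% of all genes). The difference from saline had a median of -0.084.

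Bright housekeeping and respiratory genes were slightly lower at 4 weeks, and the difference shrank when genes were matched for brightness. Of 55 ribosomal protein genes, 52 were below 0 and the median was -0.15, but -0.062 after signal-matched centring and 0.096 after scaling each array to the same interquartile range. The number lower at an unadjusted p under 0.05 was 13 (23.6%, against 4.36% of all genes), and 5 after signal-matched centring (9.09%, against 3.72%). In saline the median was -0.064. Rpl19 read 9.33 and 9.27 at 1 week and 8.91 and 8.97 at 4 weeks, a difference of -0.36 ± 0.084 (-0.25 signal-matched), while its saline arrays ran from 9.01 to 9.06. Rpl30, Rpl7 and Rps20 differed by -0.38 ± 0.097, -0.34 ± 0.091 and -0.29 ± 0.087. For the proteasome, 0 of 31 subunits lay above 0, and their median was -0.14, which was -0.057 signal-matched and 0.022 after interquartile scaling. Psmb1, a subunit of the core particle, differed by -0.25 ± 0.095. The number of lower subunits at an unadjusted p under 0.05 went from 7 (22.6%) to 1 (3.23%) with signal-matched centring. In saline 30 of 31 were below 0, with a median of -0.10.

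Complex I is the target of MPP+. Of its 35 nuclear-encoded subunits measured, 34 were below 0, with a median of -0.12 and of -0.054 after signal-matched centring. The saline median was -0.13, and the difference from saline had a median of -0.026 with 0 of 35 subunits past an unadjusted p of 0.05. Ndufb5 read 8.39 and 8.54 at 1 week and 8.10 and 8.06 at 4 weeks, a difference of -0.39 ± 0.10 against -0.17 ± 0.10 in saline. Ndufb2 differed by -0.36 ± 0.092, and these 2 accessory subunits kept differences of -0.30 and -0.35 after signal-matched centring. In complexes II to V, 34 of 39 subunits were below 0 with a median of -0.10, which was -0.014 signal-matched and 0.084 after interquartile scaling. In saline 38 of 39 were below 0, with a median of -0.12. Cox5a of complex IV differed by -0.32 ± 0.092, Uqcrb of complex III by -0.31 ± 0.095 and Atp5h of ATP synthase by -0.30 ± 0.091. Uqcrh, the hinge subunit of complex III, differed by -0.18 ± 0.10, and at both times its MPTP arrays (10.97 and 11.01, then 10.84 and 10.78) lay above the saline arrays of the same time (10.74 and 10.52, then 10.57 and 10.41).

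**Figure D4:**
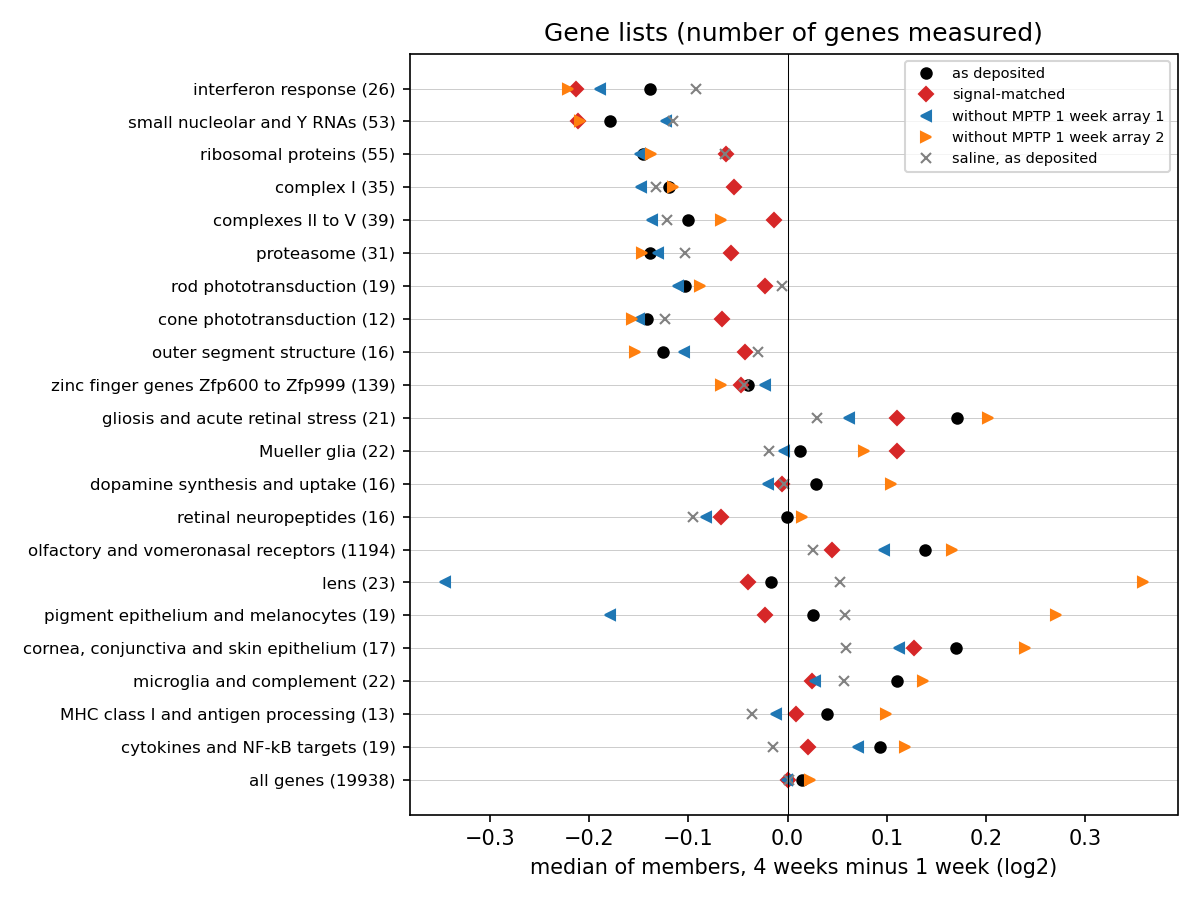
Median log2 difference between 4 weeks and 1 week (horizontal) of each gene list (vertical, number of genes measured), as deposited, after signal-matched centring, without each MPTP 1 week array, and in saline. Ribosomal, respiratory, proteasome and photoreceptor lists move toward 0 when matched for signal, the interferon and short RNA lists do not, and the lens and pigment epithelium lists change sign with the array left out.

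Photoreceptor genes, the brightest of the retina, followed the same trend with signal after MPTP, while their saline differences varied by list. All 19 rod phototransduction genes measured were below 0, with a median of -0.10, but -0.023 signal-matched and 0.26 after interquartile scaling, and 0 passed an unadjusted p of 0.05. Cone genes had a median of -0.14 over 12 genes (-0.066 signal-matched, 0.059 after interquartile scaling). Of these, 4 were lower at an unadjusted p under 0.05 (33.3%, against 4.36% of all genes) and 0 after signal-matched centring. Opn1sw, the short-wavelength cone opsin, read 11.02 and 10.88 at 1 week and 10.69 and 10.75 at 4 weeks, a difference of -0.23 ± 0.090. In saline it read 10.93 and 10.99 and then 10.69 and 10.76, a difference of -0.23 ± 0.090, equal to that after MPTP. Opn1mw, the middle-wavelength opsin, differed by -0.25 ± 0.089 after MPTP and -0.17 ± 0.089 in saline, and Cngb3, a subunit of the cone channel, by -0.27 ± 0.091 and -0.22 ± 0.091. After interquartile scaling Opn1sw and Opn1mw were at 0.097 and 0.046. The 16 outer segment genes had a median of -0.13 (-0.043 signal-matched, 0.092 after interquartile scaling). Tulp1, at -0.26 ± 0.10, was the member past an unadjusted p of 0.05 (6.25% of the list, against 4.36% of all genes lower). In saline the median was -0.0060 for rod genes, with 9 of 19 above 0, -0.12 for cone genes and -0.029 for outer segment genes. The difference from saline had medians of -0.051, -0.044 and -0.12 in these lists. It was above 0 for 1 of 16 outer segment genes, and 0 members of the lists passed an unadjusted p of 0.05 for it.

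Tyrosine hydroxylase (Th), which sets the rate of dopamine synthesis, was higher at 4 weeks than at 1 week after MPTP. It read 6.76 and 6.74 at 1 week and 6.98 and 7.04 at 4 weeks, and 6.95 and 6.87 and 6.95 and 7.10 in saline at those times. The 1 week MPTP arrays were the lowest of the 8, and the 4 week arrays lay within the saline range. The difference was 0.26 ± 0.091 (unadjusted p = 0.0181, adjusted p = 0.507 by limma), 0.22 signal-matched, and 0.26 and 0.25 without the 1 week arrays 1 and 2. In saline it was 0.11 ± 0.091, and the difference of the differences was 0.14 ± 0.13 (unadjusted p = 0.294 by limma), so a difference between MPTP and saline was not detectable with these arrays. Slc6a3, the dopamine transporter, read 6.28 and 6.65 and 6.67 and 6.79, a difference of 0.27 ± 0.14 that was 0.084 without 1 week array 1. Ddc and Slc18a2, for the next step of synthesis and for vesicular storage, differed by 0.072 ± 0.11 and 0.0057 ± 0.090. Of 16 genes of dopamine synthesis and uptake, Th was the 1 past an unadjusted p of 0.05. That is 6.25% of the list, near the 5.43% of all genes that were higher. The median of the list was 0.029. Among receptors, Drd4, which photoreceptors express, differed by -0.20 ± 0.088 (-0.097 signal-matched), and Drd1 and Drd2 by -0.0063 ± 0.088 and -0.044 ± 0.087.

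Of 16 retinal neuropeptide genes, Penk had the lowest difference. This precursor of enkephalins read 8.37 and 8.996 at 1 week and 7.54 and 8.05 at 4 weeks, a difference of -0.88 ± 0.31, which was -1.20 without 1 week array 1 and -0.57 without array 2. In saline it read 7.71 and 8.74 at 1 week and 7.43 and 7.71 at 4 weeks, a difference of -0.65 ± 0.31, and saline 1 week array 2 lay between the MPTP 1 week arrays. Tac1, the precursor of substance P, differed by -0.23 ± 0.11 after MPTP (-0.30 and -0.15 without those arrays) and by -0.20 in saline, and Crh by -0.22 ± 0.096 and -0.22.

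Müller glia genes had a median difference of 0.013 over 22 genes, and 0.11 after signal-matched centring, with 18 above 0. Kcnj10, the main potassium channel of these cells, read 7.59 and 7.65 and 7.82 and 7.80, a difference of 0.19 ± 0.085, and the amino acid transporter Slc1a4 differed by 0.30 ± 0.091. Rlbp1, the retinal-binding protein of Müller glia and pigment epithelium, differed by 0.11 ± 0.11. It was lower after MPTP than in saline at both times, at 8.19 and 8.20 against 8.65 and 8.78 at 1 week and 8.44 and 8.16 against 8.59 and 8.58 at 4 weeks. Glud1, glutamate dehydrogenase, and Dio2, which activates thyroid hormone, also lay below saline at both times and differed by -0.079 ± 0.090 and 0.0055 ± 0.14 between the times. The gliosis marker Gfap differed by 0.069 ± 0.12.

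Of 21 gliosis and stress genes, 19 were above 0 with a median of 0.17, but the median depended on single arrays. Fgf2, a survival factor raised in injured retina, read 7.60 and 7.28 at 1 week and 8.32 and 7.35 at 4 weeks. Serpina3n read 7.18 and 7.25 and 8.23 and 7.02, Osmr 7.28 and 7.15 and 7.86 and 6.83, and Edn2 6.80 and 6.92 and 7.81 and 6.85. In each, MPTP 4 weeks array 1 was high and array 2 was within or below the range of the 1 week arrays. Saline 4 weeks array 1 was high in the same genes, with Fgf2 at 8.33 and 7.36 and Osmr at 7.84 and 6.93 in the 2 saline arrays. Without MPTP 4 weeks array 1 the median of the list was -0.0056, and without MPTP 1 week array 1 it was 0.062. For 3 members, Lif, Ccl2 and Edn1, both 4 week arrays lay above both 1 week arrays (14.3%, against 22.8% of all genes). The chemokine Ccl2 and the endothelin Edn1 differed by 0.23 ± 0.12 and 0.18 ± 0.11, short of an unadjusted p of 0.05. Lif, a cytokine of injured retina that acts on Müller glia, read 5.81 and 5.69 and then 6.17 and 6.10. It differed by 0.38 ± 0.10, and saline 1 week arrays read 6.12 and 5.89.

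**Figure D5:**
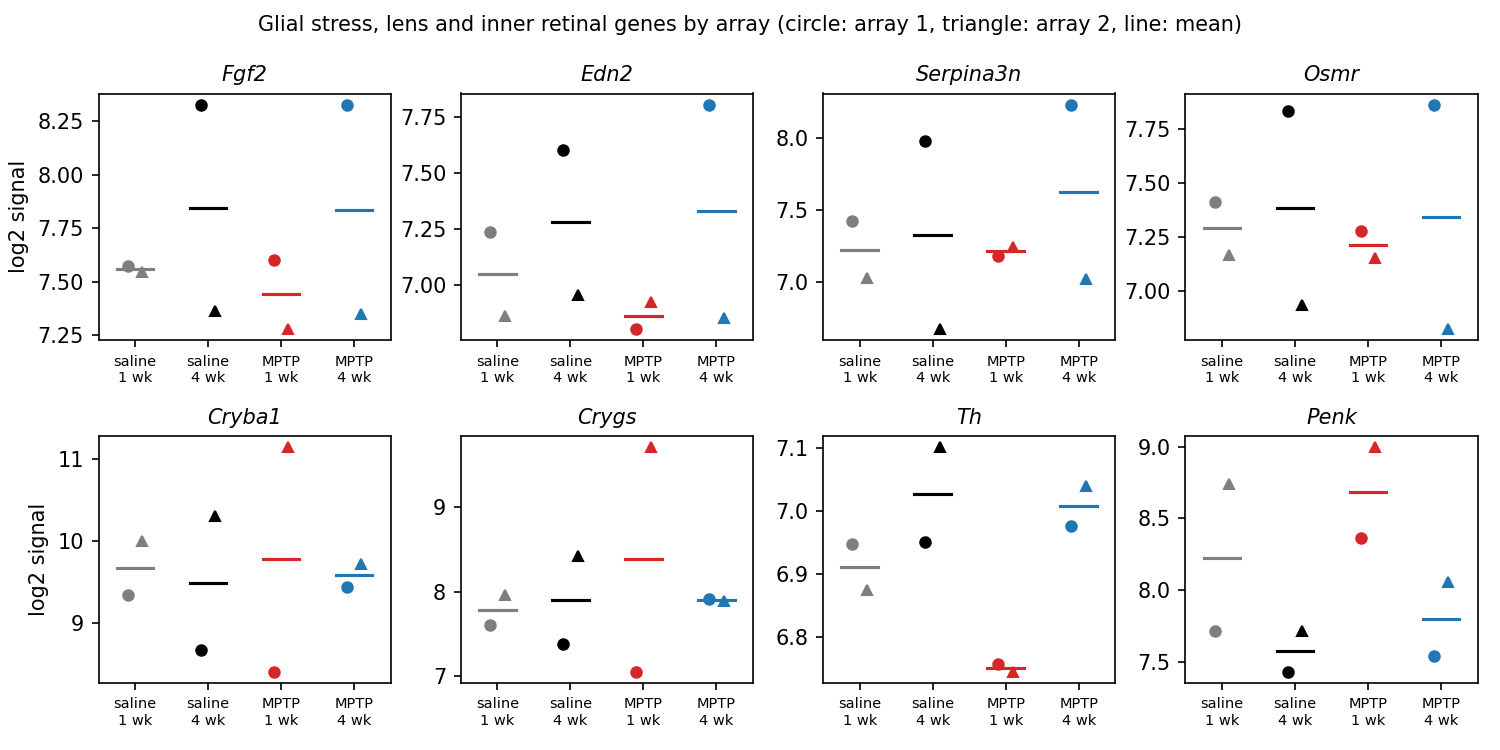
Log2 signal (vertical) of 4 glial stress genes, 2 lens crystallins, Th and Penk in each of the 8 arrays, by group (horizontal); circles are array 1, triangles array 2 and lines the group means. The stress genes are high in array 1 of both 4 week groups, the crystallins in MPTP 1 week array 2, and Th is lowest in the MPTP 1 week arrays.

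Genes of other eye tissues depended on the array. Of 23 lens genes, 11 were above 0 with a median of -0.016, which was -0.35 without MPTP 1 week array 1 and 0.36 without array 2. The crystallin Cryba1 read 8.41 and 11.15 at 1 week and 9.44 and 9.73 at 4 weeks, and Crygs 7.05 and 9.71 and 7.91 and 7.89. For pigment epithelium genes the median of 19 was 0.026, or -0.18 and 0.27 without those arrays. No direction can be given for either list. Surface epithelium genes were higher at 4 weeks in 15 of 17 (88.2%, against 53.3% of all genes), with a median of 0.17 (0.13 signal-matched). In saline 12 of 17 were above 0, with a median of 0.059. After MPTP 5 were past an unadjusted p of 0.05 (29.4%, against 5.43%), and 3 after signal-matched centring (17.6%, against 3.34%). Examples of the 5 were Lor at 5.55 and 5.52 and 5.90 and 5.92 and Ly6d at 6.58 and 7.09 and 7.19 and 7.25. The difference of Ly6d was 0.39, and 0.13 without 1 week array 1. Whether surface tissue took part in any other difference was not tested.

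Among the other genes with the largest differences, those higher at 4 weeks and above the median of signal were Bst1, Dppa5a, Tmem26, Pate11, Hamp2, Arl14epl, Pcolce, Lgsn, Rhox6 and Mrap2. Bst1, an ectoenzyme that hydrolyses NAD, read 7.27 and 6.88 at 1 week and 7.80 and 7.50 at 4 weeks, a difference of 0.57 ± 0.18 (0.77 and 0.38 without 1 week arrays 1 and 2), and its saline arrays ran from 7.35 to 7.84. Rhox6, a homeobox gene, had the tightest arrays, at 7.63 and 7.69 and 8.08 and 8.07, and differed by 0.41 ± 0.10. The other 8 differed by between 0.40 (Mrap2, an accessory protein of melanocortin receptors) and 0.52 (Dppa5a), of which Lgsn was 0.22 without 1 week array 1. Pcolce, an enhancer of collagen processing, and Tmem26 were high in MPTP 4 weeks array 1, like the stress genes, at 7.85 and 7.35 and 7.64 and 7.04 in the 4 week arrays. Below the median of signal, Cyp2d11 (0.71 ± 0.20), Stfa3 (0.64 ± 0.12), Cyp2c67 (0.61 ± 0.10), Uox (0.60 ± 0.15, or 0.39 without 1 week array 1) and Clec2e (0.60 ± 0.13) were higher. They include cytochrome P450 genes and urate oxidase of the liver and lay in the dimmest 14.9% of genes, where the median gene was 0.097 to 0.11 higher. Cyp2c67 read 2.94 and 2.96 at 1 week after MPTP, and the remaining 6 arrays ran from 3.45 to 3.70.

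The lower genes above the median of signal that were not interferon-induced were Penk, Kcnj14, Zfp738, Eif4a3 and Hmgb1. Kcnj14, an inwardly rectifying potassium channel, read 7.38 and 7.29 and 6.57 and 7.00, a difference of -0.55 ± 0.17. Eif4a3, the helicase of the exon junction complex, differed by -0.48 ± 0.18 (-0.64 and -0.32 without 1 week arrays 1 and 2), and Hmgb1, a chromatin protein, by -0.48 ± 0.18. Zfp738, a zinc finger gene, read 8.08 and 8.07 and 7.58 and 7.53, a difference of -0.52 ± 0.12, with saline 1 week array 2 as high at 8.08. With the mean over its probe sets the difference of Zfp738 was -0.26. Zfp931, a dimmer gene, differed by -0.89 ± 0.24. Of 139 genes named Zfp600 to Zfp999, which encode mostly repressors of transcription, 15 were lower (10.8%, against 4.36% of all genes) and 4 higher (2.88%, against 5.43%) at an unadjusted p under 0.05, with a median of -0.040. The saline median of these genes was -0.044, with 96 of 139 below 0 and 6 lower at that p (4.32%, against 1.25% of all genes). Their difference from saline had a median of -0.015, so the lower level was not particular to MPTP. Zfp830 differed by -0.36 ± 0.094 after MPTP and by -0.36 in saline. Ufm1, a ubiquitin-like modifier, differed by -0.31 ± 0.13, or by -0.19 with the mean over its probe sets. Its MPTP arrays lay above the saline arrays at both times, at 8.03 and 8.08 against 7.37 and 7.53 and 7.82 and 7.65 against 7.52 and 7.15.

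Olfactory and vomeronasal receptor genes, which retina is not known for, showed the trend of dim genes. Of 1194, 987 were above 0, with a median of 0.14, 0.045 signal-matched and -0.094 after interquartile scaling. The number higher at an unadjusted p under 0.05 was 168, or 14.1%, against 5.43% of all genes and 236 of the 1993 genes of the dimmest class (11.8%). After signal-matched centring it was 72 (6.03%, against 3.34% of all genes).

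The MPTP difference was set beside the saline difference over the same interval, which shares no array with it. At an unadjusted p under 0.05, 174 genes were higher and 250 lower in saline, 2.13% of genes together, and 0 at an adjusted p (smallest 0.9997 by limma). Across genes, which are not independent replicates, the 2 differences correlated at r = 0.40 and had the same sign in 66.2% of genes. After signal-matched centring r was 0.30, and without MPTP 1 week array 1 and saline 1 week array 2 it was 0.037, with the same sign in 51.2%. The MPTP difference minus the saline difference had 391 genes at an unadjusted p under 0.05 (1.96%), 284 above and 107 below 0, and 0 at an adjusted p, with the smallest at 0.147 for Gm5039.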

How the data were processed

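Retinal RNA of 4 groups (saline or MPTP, 1 or 4 weeks, 2 arrays each) was amplified from 100 ng and hybridised to Affymetrix arrays, per the labels. The deposited values are log2 signals. The authors used RMA in Affymetrix Expression Console (versions not given), per the submitters' processing notes. RMA brings all arrays to a common distribution of probe values. The number of arrays limits the precision. Of 28944 probe sets, 21789 name 1 gene in the platform annotation, and 1621 with several genes and 5534 without an entry were left out. The probe set with the highest mean was kept per gene, which left 19938 genes, 82 of them without an entry among RefSeq gene names. No dim gene was filtered out.

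Each gene was fitted with limma 3.58.1 in R 4.3.3, as 4 group means fitted to the 8 arrays together (4 residual degrees of freedom), and 3 contrasts: 4 weeks minus 1 week in MPTP, the same in saline, and their difference. The p-values are two-sided and adjusted by Benjamini-Hochberg over all genes, with a threshold of 0.05. Differences are log2 with the standard error of the fit. Named genes are the 10 highest and 10 lowest above the median of signal and 5 and 5 below it, among genes with no overlap and an unadjusted p under 0.05, without receptor families of nasal epithelium, microRNAs, short RNAs and predicted genes, beside a fixed set of dopamine and glial genes. List examples are the 4 members with the smallest p, and further members are named by their values or roles. The comparison and the 56 gene lists were chosen with earlier results of these data known.

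Alternatives were quantile, median, interquartile and cyclic loess scaling, genes above the median of signal, mean probe sets, other eBayes settings, array weights, the groups compared alone, the array number as a block and each array left out. Signal-matched centring and a block with exchanged numbers were added after seeing the data. Array numbers did not pair 1 week with 4 week arrays within a treatment: the deviations of same-numbered arrays correlated at r = -0.13 in MPTP and -0.16 in saline. Whether they pair MPTP with saline arrays of the same time was not tested. The code was tested on simulated data. Promoter letters are from RefSeq (GRCm38.p6). Plots were made in Python 3.11.15 (matplotlib 3.10.9).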

Additional observations from a re-analysis of the deposited data

How the results depend on the processing

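With 2 arrays per group no gene passed the adjusted threshold under any scaling, probe set, eBayes, weighting or block setting in the 3 comparisons, and the count for MPTP ranged from 0 to 1 when 1 array was left out, where the lone array of a group is assumed to vary like the other groups. It was 1 (Rny1) without both arrays that stand apart (adjusted p 0.0374 by limma). At an unadjusted p under 0.05, genes higher after MPTP numbered 1083 and were 677 with quantile normalization, 713 with median centring, 503 with interquartile scaling, 647 with cyclic loess, 231 among genes above the median of signal and 666 with signal-matched centring. They ranged from 651 to 1949 with 1 array left out. Lower genes numbered 869 and were 732, 1284, 989, 738, 1027 and 742 in those settings in the same order, 1216 with the eBayes trend and robust setting, and from 459 to 1192 with 1 array left out. The lowest counts came without MPTP 1 week array 1 (459), MPTP 4 weeks array 2 (495) and MPTP 4 weeks array 1 (534). Without either saline 4 week array the number was 575. With the replicate number as a block, 889 genes were higher and 692 lower, against 1083 and 869 without it. At an adjusted p under 0.05 there were 0 with the block and 0 without it. A block with exchanged numbers, chosen after seeing the data, gave 983 and 709. The median of the interferon list stayed below 0 in all 21 alternatives, from -0.32 to -0.12, and that of the small nucleolar and Y RNAs from -0.27 to -0.12.

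Of 135 genes whose values were recomputed, 34 changed sign in at least 1 alternative, and where no value shows the cause it was not tested. With quantile normalization the sign turned for Drd1 (0.091), Drd2 (0.065), Dio2 (-0.036), Glud1 (0.030), Mx1 (-0.052), Ddc (-0.035), Slc18a2 (-0.076). With interquartile scaling the sign turned for Drd1 (0.089), Drd2 (0.076), Opn1sw (0.097), Dio2 (-0.036), Uqcrh (0.15), Glud1 (0.029), Gngt1 (0.26), Rcvrn (0.18), Pde6g (0.30), Grk1 (0.12), Opn1mw (0.046), Impg1 (0.073), Rpgrip1 (0.062), Maob (-0.032), B2m (0.043), Psmb8 (-0.0039), Adgre1 (-0.064), Mx1 (-0.18), Ddc (-0.077), Slc18a2 (-0.070). With cyclic loess the sign turned for Drd1 (0.088), Drd2 (0.056), Gfap (-0.0043), Dio2 (-0.012), Glud1 (0.022), Psmb8 (-0.00032), Mx1 (-0.048), Ddc (-0.038), Slc18a2 (-0.074). With signal-matched centring the sign turned for Drd1 (0.099), Drd2 (0.057), Dio2 (-0.0030), Glud1 (0.019), Psmb8 (-0.022), Mx1 (-0.060), Ddc (-0.025), Slc18a2 (-0.081). With median centring the sign turned for Dio2 (-0.033), Slc18a2 (-0.033). With the fit without both arrays that stand apart the sign turned for Dio2 (-0.017), Psmb8 (-0.012), Crygn (-0.036), Ttr (-0.34), Slc18a2 (-0.0018). Leaving out 1 array at a time turned the sign for Drd1 (-0.068 to 0.055), Drd2 (-0.089 to 0.0020), Gfap (-0.029 to 0.17), Rlbp1 (-0.038 to 0.25), Dio2 (-0.24 to 0.25), Edn2 (-0.0089 to 0.94), B2m (-0.46 to 0.057), Psmb8 (-0.012 to 0.20), Crygn (-0.036 to 0.45), Crygc (-1.16 to 0.26), Tyrp1 (-0.51 to 0.054), Rsad2 (-0.029 to 0.016), Mx1 (-0.041 to 0.16), Fgf2 (-0.092 to 0.88), Serpina3n (-0.19 to 1.02), Osmr (-0.39 to 0.65), Cryba1 (-1.56 to 1.18), Crygs (-1.81 to 0.85), Cryaa (-1.27 to 0.53), Ttr (-0.34 to 0.64), Ddc (-0.061 to 0.20), Slc18a2 (-0.044 to 0.055). Fgf2, Serpina3n, Osmr and Edn2 turn without MPTP 4 weeks array 1, Cryaa, Cryba1, Crygc and Crygs without MPTP 1 week array 2, and Crygn without MPTP 1 week array 1.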

Other observations

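The 35 gene lists not described above hold 680 measured genes in all, of which 18 were higher (2.65%, against 5.43% of all genes) and 37 lower (5.44%, against 4.36%) at an unadjusted p under 0.05 between 4 weeks and 1 week after MPTP, and none passed the adjusted threshold in limma. Their medians ran from -0.12 (spliceosome) to 0.14 (skeletal muscle), and from -0.061 (superoxide and peroxide scavenging) to 0.084 (collagens and extracellular matrix) after signal-matched centring. Ganglion cell genes had a median of -0.034 over 21 genes, bipolar cell genes -0.087 over 20 and amacrine cell genes -0.000070 over 22. Genes of familial Parkinson disease had a median of -0.031 over 12 with 0 past an unadjusted p of 0.05. Neurotrophic factors and their receptors had 3 of 19 higher (15.8%) and 0 lower at that p, and endothelium and pericyte genes 4 of 21 higher (19.0%) and 0 lower.

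Of the 5534 probe sets without a gene entry, 659 (11.9%, against 9.79% of all genes) had an unadjusted p under 0.05 between 4 weeks and 1 week after MPTP. None had an adjusted p under 0.05 in limma. Of the 1621 probe sets with several genes 170 (10.5%) had that unadjusted p, and of the 1851 further probe sets of a gene 214 (11.6%). A difference of at least 1.5-fold with no overlap of arrays and an unadjusted p under 0.05 was met by 84 of the 5534 without an entry. It was met by 7 of the 1621 and 4 of the 1851, against 32 of 19938 genes.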
